A study of Mus musculus with 8 samples.

Results

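The transcriptional answer of wild-type (WT) mouse peritoneal macrophages to 4 h of lipopolysaccharide (LPS) was measured by setting the WT RNA of the arrays titled for 4 h against the WT RNA of the untreated arrays. The samples were chosen by their labels alone and comprise 4 of the 16 labelled RNA samples of the series, 2 untreated and 2 stimulated. Every gene probe of the array was kept, 55681 in all, and 36925 genes and transcripts were tested, of which 20836 carry a gene symbol. The WT cells came from littermates of LysMCre-fur(fl/fl) mice, which lack FURIN in myeloid cells because Cre is driven by the lysozyme M promoter, and the floxed line had been backcrossed to C57BL/6. No age is given for these mice in the labels.

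The series holds 8 Agilent 2-colour arrays, on which WT and knockout (KO) RNA of the same time point and replicate were hybridised together, untreated or after 1, 4 or 24 h of LPS. Peritoneal lavage cells were cultured for 24 h, washed free of nonadherent cells and given fresh medium for 1 h before LPS of E. coli was added at 1 μg/ml. The culture protocol in the labels names 4 h of stimulation for every sample, and the times used here are those of the titles. The stimulated and the untreated WT samples differ in LPS and its time alone as far as the labels go, and all 4 are labelled C57BL/6 and WT. WT RNA was labelled with Cy3 in replicate 1 and with Cy5 in replicate 2 at both time points, so that a difference between the replicates may also be one between the dyes. The cells were selected by adherence and not sorted, and the arrays read the RNA of a whole culture. The labels call the 2 samples of a group biological replicates, and the p-values rest on the spread between replicates pooled over the 8 genotype and time groups, KO samples included, and moderated across genes.

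LPS, a component of the outer membrane of Gram-negative bacteria, is handed by CD14 to the receptor complex of TLR4 and MD-2 on macrophages. The adaptor MyD88 then leads to NF-κB and MAP kinase activity and to transcription of inflammatory cytokines, while the adaptor TRIF leads through IRF3 to interferon-β, which acts back on the cells through its own receptor and the factor ISGF3. Feedback inhibitors such as A20 and the SOCS proteins are themselves transcribed in the response.

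All levels below are normalized log2 intensities, given for replicate 1 and then replicate 2, and a difference of 1 on this scale is a 2-fold change. Between 43.7% and 51.3% of the gene spots were well above background in these 4 samples, and no spot was saturated. The median SE of a log2 change was 0.125. The intensities of every sample were set to one common distribution, so each change is relative to the other genes of the sample, and the median change over all genes tested was -0.000655. All 8 arrays lie on 1 slide, where the 4 h arrays have other positions than the untreated ones, so that position and treatment cannot be told apart.

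The cells carried the markers of macrophages. Lyz2, lysozyme M, had log2 intensities of 18.16 and 17.70 in the untreated samples and 17.27 and 16.89 at 4 h, and Adgre1, which encodes F4/80, stood at 16.11 and 15.91 untreated and 15.11 and 15.09 at 4 h. Of 9 macrophage markers 5 were lower after LPS, among them Csf1r, the receptor of the growth factor M-CSF, which fell by 1.30 ± 0.15 on the log2 scale, and 2 were higher, Cd14 and Spi1. Their mean level was 14 untreated and 13.4 at 4 h. In RNA of a whole culture, fewer cells of a type and less RNA per cell cannot be told apart. B cell markers were also measured, with a mean level of 11.2 untreated and 10.5 at 4 h, and of 9 such markers 3 were lower, 2 higher and 4 did not pass the test. Of the mast cell markers, 8 of 9 did not pass the test, and the exception was Hdc, histidine decarboxylase, at 9.89 and 9.47 untreated and 15.07 and 14.50 at 4 h. The neutrophil granule genes S100a9, Ngp, Mpo, Retnlg and Ltf and the receptor gene Cxcr2 were not well above background in any of the 4 samples. The other 4 of the 10 neutrophil markers were above it in all 4 samples, of which Camp was higher at 4 h, Elane and Mmp8 were lower, and S100a8, at 11.32 and 11.39 untreated and 11.17 and 10.98 at 4 h, did not pass the test. Of 7 dendritic cell markers 2 were higher and 4 lower, and of 7 eosinophil markers 1 was lower and 6 did not pass. Only 1 of 11 T and NK cell markers was lower and 1 higher, and of 13 mesothelial and fibroblast markers 11 did not pass the test. Of 10 markers of steroid-producing cells 2 were higher and 8 did not pass. Among them Hsd3b1 and Mgarp differed between the replicates at both time points, with Hsd3b1 at 10.97 and 6.26 untreated and 10.42 and 5.66 at 4 h, so that replicate 1 was higher before and after LPS alike. For comparison with these counts, 15.5% of all genes and transcripts tested were called higher and 19.2% lower. Of those above background in both samples of a group, 28.6% were higher and 36.3% lower. The part of cells other than macrophages in the results that follow was not tested.

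After 4 h of LPS, 12822 of the 36925 genes and transcripts tested differed from the untreated WT cells (34.7%, limma with Benjamini-Hochberg adjustment at 0.05). Of these 5724 were higher (15.5%) and 7098 lower (19.2%), and all 12822 changed in the same direction in both replicates. A change of more than 2-fold was found upward in 2308 (6.25%) and downward in 2951 (7.99%). Among the genes with a symbol, 3764 rose and 5095 fell. The upper end was longer than the lower, since 111 named genes rose more than 16-fold and 36 fell by as much. Called or not, 327 genes and transcripts had no probe above background without LPS and were above it in both samples at 4 h, while 1296 went from measured to dim. The methods' t-test, run for each gene on its 4 values alone, called 1844 after Benjamini-Hochberg adjustment, 854 higher and 990 lower, and 11484 without adjustment.

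**Figure D1:**
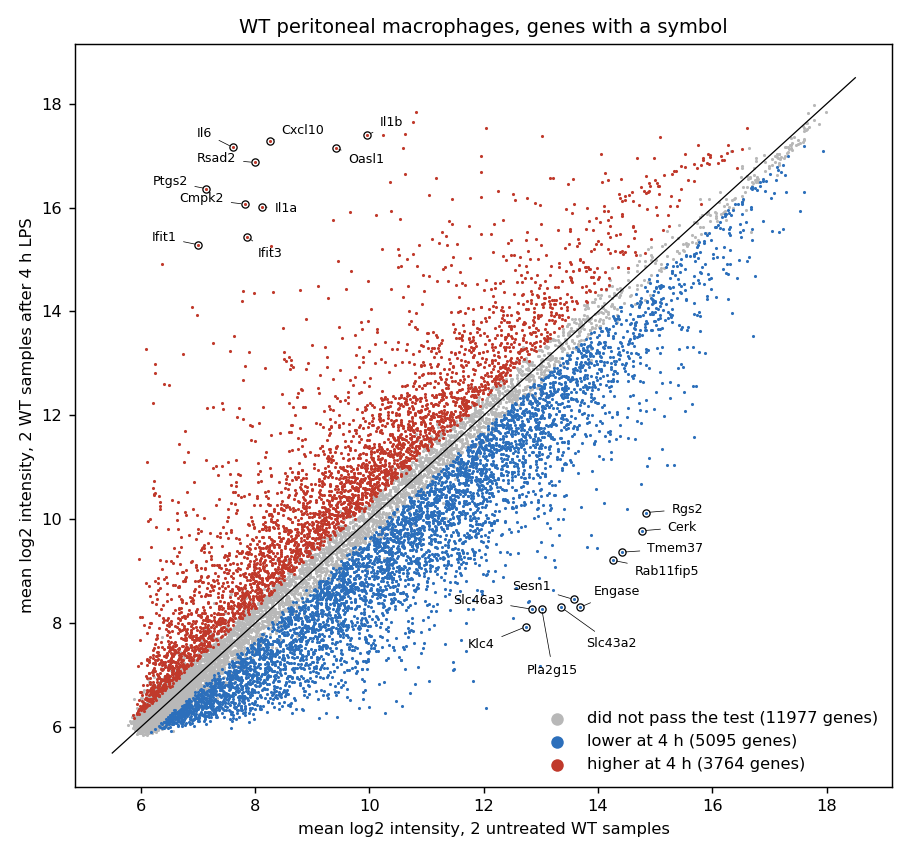
Mean normalized log2 intensity of 20836 named genes in untreated WT macrophages (x axis) and after 4 h of LPS (y axis), each point the mean of 2 samples. Red points are the 3764 genes that were higher, blue points the 5095 that were lower and grey points the 11977 that did not pass the test, the line marks equal levels, and the 20 ringed genes are the 10 largest changes in each direction among genes measured in all 4 samples.

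The largest rises among genes measured in all 4 samples were those of inflammatory mediators and of interferon-stimulated genes. Il6, a cytokine of the acute phase response, had log2 intensities of 7.88 and 7.34 without LPS and 17.06 and 17.26 after 4 h, a rise of 9.55 ± 0.28 (SE) or 749.9-fold (adjusted p = 2.44e-11). Under the other settings described at the end the log2 change of Il6 lay between 9.28 and 10.21. Ptgs2, the inducible cyclooxygenase, rose from 7.33 and 6.97 to 16.45 and 16.28, which is 595-fold (adjusted p = 1.65e-11), a log2 change of 9.22 here and of 10.27 with Agilent's processed signals. Cxcl10, a chemokine for activated T cells, rose from 8.14 and 8.40 to 17.25 and 17.32, or 518-fold (adjusted p = 4.29e-11). In each of these genes the stimulated samples stood more than 8 log2 units above both untreated samples and the groups lay far apart. The antiviral genes Rsad2 (viperin), Ifit1, Cmpk2, Oasl1 and Ifit3 came next with Il1a and Il1b. Rsad2 went from 7.89 and 8.10 to 16.82 and 16.92, a rise of 8.88 ± 0.17, and Cmpk2, a mitochondrial nucleotide kinase that lies beside Rsad2, from 7.79 and 7.84 to 16.13 and 16.005, a rise of 8.25 ± 0.17.

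The lower end held genes of other kinds. Engase, a cytosolic enzyme that trims N-glycans, had 13.92 and 13.44 without LPS and 8.27 and 8.34 at 4 h and fell by 5.38 ± 0.23 on the log2 scale (adjusted p = 4.88e-10). Sesn1, a stress-induced regulator of the growth kinase mTORC1, went from 13.81 and 13.34 to 8.27 and 8.64, and Cerk, the ceramide kinase, from 14.78 and 14.78 to 9.68 and 9.88. Slc43a2, a transporter of neutral amino acids, Tmem37, Rab11fip5, Klc4, Pla2g15, a lysosomal phospholipase, Rgs2, a regulator of G-protein signalling, and Slc46a3 complete the 10, with log2 changes from -5.05 to -4.58. Rgs2 had -4.71 on its brightest probe and -2.84 as a mean of its probes. For all 10 both stimulated samples lay below both untreated samples.

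Genes that crossed the background have only a bound. It allows for the floor of the dim group, not for the spread between replicates or between probes. The bound compares the mean of the bright group with the higher of the dim probe's own signal and the lowest signal called above background on each array, in single channels after loess and Aquantile scaling, where each group holds both dyes once. Ifnb1, interferon-β, was not well above background in either untreated sample and had log2 intensities of 13.06 and 13.48 at 4 h, which is at least 116-fold higher (adjusted p = 5.65e-12). Ch25h, the cholesterol 25-hydroxylase, was at least 95.6-fold higher, and Csf3, the granulocyte colony-stimulating factor, at least 83-fold. In Csf3 the log2 change was 7.09 in replicate 1 and 6.05 in replicate 2. The cytokine gene Il19 was at least 56.1-fold higher, the epidermal growth factor receptor ligands Ereg and Areg at least 25.7- and 19.4-fold, Ifi44 at least 18.1-fold, Il23a, a subunit of interleukin-23, at least 16.8-fold, and Plat, tissue plasminogen activator, at least 16.7-fold. Ifit3b, at least 71.6-fold higher, is nearly identical to Ifit3 and the probes may share signal. In the other direction Nat8l, which makes N-acetylaspartate, was at least 16.5-fold lower, Cracr2b at least 15.1-fold, 0610040J01Rik at least 13.5-fold, Neil2, a DNA glycosylase, at least 9.47-fold and Rnf144b at least 9.22-fold.

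The promoters of Il6, Tnfaip3, Cxcl10 and Rsad2 are shown because each gene had the largest rise in its list (cytokines, NF-κB genes, CXC chemokines and interferon-stimulated genes) among the members with a promoter in the RefSeq sequences used here, and because NF-κB and the interferon-activated factor ISGF3 are known to act through short sites near the start of such genes. Each line gives the 250 bases before the gene's start in RefSeq (build GRCm38.p6), read 5′ to 3′ on the gene's strand. Capitals mark matches, on either strand, to 2 letter patterns, GGGNNNNNCC for an NF-κB site (kappaB) and GAAANNGAAA for an interferon-stimulated response element (ISRE), and neighbouring capitals can hold overlapping matches.
Il6 (chr5:30012864-30013113, plus strand, 3 kappaB matches, of which 2 overlap): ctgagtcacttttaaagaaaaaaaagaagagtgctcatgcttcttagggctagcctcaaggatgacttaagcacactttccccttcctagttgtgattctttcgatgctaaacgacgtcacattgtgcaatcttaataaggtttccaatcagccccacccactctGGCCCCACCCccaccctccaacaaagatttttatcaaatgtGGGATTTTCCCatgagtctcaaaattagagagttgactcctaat
Tnfaip3 (chr10:19015411-19015660, minus strand, 4 kappaB matches, of which 2 overlap, the upstream one of 2 starts that RefSeq lists, the other holding 2 matches): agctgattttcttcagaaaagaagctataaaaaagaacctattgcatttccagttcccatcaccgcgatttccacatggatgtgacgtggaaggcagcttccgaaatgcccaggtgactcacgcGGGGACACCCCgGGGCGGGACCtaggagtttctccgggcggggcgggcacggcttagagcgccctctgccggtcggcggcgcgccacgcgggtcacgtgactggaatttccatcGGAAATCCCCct
Cxcl10 (chr5:92348890-92349139, minus strand, 3 kappaB matches, of which 2 overlap, and 1 ISRE match): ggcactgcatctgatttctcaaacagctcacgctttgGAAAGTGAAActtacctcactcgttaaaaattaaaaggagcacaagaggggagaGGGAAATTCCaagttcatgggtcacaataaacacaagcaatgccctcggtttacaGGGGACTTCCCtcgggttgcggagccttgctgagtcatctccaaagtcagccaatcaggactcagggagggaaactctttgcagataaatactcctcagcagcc
Rsad2 (chr12:26456453-26456702, minus strand, 1 kappaB and 1 ISRE match): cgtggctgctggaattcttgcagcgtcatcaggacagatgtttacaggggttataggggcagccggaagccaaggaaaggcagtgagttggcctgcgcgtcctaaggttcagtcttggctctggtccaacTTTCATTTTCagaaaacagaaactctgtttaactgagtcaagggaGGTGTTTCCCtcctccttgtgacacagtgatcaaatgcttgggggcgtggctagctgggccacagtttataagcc

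In promoters of this length the kappaB letters are common and the ISRE letters are not. A kappaB match was held by 45.8% of all 32841 RefSeq promoters and an ISRE match by 2.98%, where a gene may have several. Counted by gene, with a match in any of its promoters, the shares were 56.3% and 3.46% of the 16518 tested genes with a listed promoter. They were 66.0% and 6.97% of the 1348 genes that rose more than 2-fold, 67.1% and 2.55% of the 1997 that fell more than 2-fold, and 53.6% and 3.23% of the other 13173. Among 13 NF-κB subunits and inhibitors with a listed promoter, a kappaB match was held by 11 (84.6%) and an ISRE match by none. The kappaB share was 63.6% of 11 CXC chemokines, 55.6% of 18 cytokines and 55.2% of 29 interferon-stimulated genes, and the ISRE share was 18.2%, 11.1% and 37.9% of the same lists. Of 9 guanylate-binding protein and immunity-related GTPase genes all 9 held an ISRE match and 2 a kappaB match. These shares describe letters in the promoter and were not tested.

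The genes of LPS recognition itself moved in both directions. Of 18 receptor and co-receptor genes 6 rose, 5 fell and 7 did not pass the test, with a median log2 change of -0.07. Most listed genes were above background, and over the 20097 genes and transcripts above background in both samples of a group the shares called were 28.6% higher and 36.3% lower, against which the counts of this and the following lists can also be read. Cd14, the co-receptor that delivers LPS, rose from 15.61 and 15.42 to 17.19 and 16.88 (log2 change 1.52 ± 0.26). Tlr2, the receptor of bacterial lipoproteins, rose by 1.11 ± 0.21, and Tlr4 went from 9.83 and 9.57 to 10.85 and 10.41, a rise of 0.93 ± 0.20 (adjusted p = 0.0021). Tlr3, which senses double-stranded RNA, rose by 1.76 ± 0.13 from a low level. Tlr13, a receptor of bacterial ribosomal RNA, fell from 14.45 and 14.61 to 11.24 and 11.88, and Unc93b1, a chaperone of endosomal receptors, fell from 14.70 and 14.55 to 13.62 and 13.36. Ly96, which encodes MD-2, was at 11.74 and 11.73 untreated and 11.72 and 11.53 at 4 h and did not pass, and neither did the chaperone gene Hsp90b1, with a change of -0.11.

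Downstream of the receptors more rose than fell. Of 24 adaptors and kinases 18 rose, 4 fell and 2 did not pass, with a median log2 change of 0.75. Myd88 rose from 11.79 and 11.81 to 14.18 and 13.93 (log2 change 2.25 ± 0.12, adjusted p = 4.48e-09). Peli1, a ubiquitin ligase of the pathway, rose by 3.18 ± 0.13, Ripk2, the kinase of the NOD receptors, by 2.88 ± 0.18 and Map3k8, the kinase TPL-2 of the ERK branch, by 2.31 ± 0.19. Irak1 and Irak4, the kinases bound by MyD88, had log2 changes of -0.83 and -0.56, and Tab1, a subunit of the TAK1 complex, of -1.47. Ticam1, which encodes TRIF, was at 10.20 and 10.17 untreated and 10.21 and 10.38 at 4 h and did not pass the test, and neither did Traf3, with a log2 change of 0.07.

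NF-κB genes and their inhibitors formed one of the lists with the highest share of rises. Of 17 members 15 rose, with a median log2 change of 2.20, and only Cyld, a deubiquitinase, fell, by 1.52 ± 0.21. Nfkbiz, which encodes the nuclear cofactor IκBζ, rose from 8.71 and 8.54 to 13.07 and 12.85, and Tnfaip3, which encodes A20, from 12.19 and 12.30 to 16.41 and 16.24, with log2 changes of 4.34 ± 0.19 and 4.08 ± 0.12. Tnip3, a partner of A20, and Nfkb1, the precursor of p50, rose by 3.32 ± 0.27 and 3.09 ± 0.18. The next member, Otud7b, was at 7.15 and 7.06 untreated and 6.90 and 7.10 at 4 h and did not pass. Of 20 inhibitors of cytokine signalling and factors of mRNA decay 14 rose and 2 fell (1 fell without untreated replicate 2), with a median of 1.44. The SOCS family, whose proteins block JAK kinases, held the largest rises, Socs1 from 7.40 and 7.72 to 13.37 and 13.10, Socs3 from 12.15 and 11.77 to 16.92 and 16.46 and Cish from 8.62 and 8.40 to 13.50 and 12.95. Il1rn, the antagonist of the interleukin-1 receptor, rose by 4.59 ± 0.35. Socs5 fell by 0.52 ± 0.12, and Rgs1 and Tollip had changes of 0.17 and -0.06 that did not pass.

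Cytokine genes had the highest median of all lists, 4.48, with 22 of 26 members measured higher, 3 lower and 1 not past the threshold. Tnf had the same value in both untreated samples to 2 decimals, 10.81 and 10.81, and 17.78 and 17.92 after 4 h, a rise of 7.04 ± 0.26 (adjusted p = 1.80e-10). Il1b rose from 10.20 and 9.72 to 17.37 and 17.41 and Il1a from 8.18 and 8.05 to 15.97 and 16.06, by 173- and 239-fold. Csf2, which encodes GM-CSF, was at 6.55 and 6.19 untreated, where 1 of the 2 samples was above background, and at 14.73 and 15.08 at 4 h, a rise whose size is therefore not given. The anti-inflammatory cytokine Il10 rose from 7.42 and 7.45 to 12.16 and 12.08, 25.8-fold, and Il15, a growth factor of NK and memory T cells, from 7.78 and 7.58 to 12.15 and 11.78. The log2 change of Il10 was 4.69 here and between 4.64 and 5.52 under the other settings. Il33, a cytokine of the interleukin-1 family, was not above background untreated and at least 2.79-fold higher at 4 h. Tgfb1 was at 11.79 and 11.79 untreated and 11.86 and 11.69 at 4 h, a log2 change of -0.02 ± 0.18 (adjusted p = 0.963). The members that fell were Tnfsf13b, which encodes the B cell survival factor BAFF, from 9.28 and 8.88 to 7.24 and 7.25, Il16 by 1.42 ± 0.17 and Tnfsf12, which encodes TWEAK, by 0.57 ± 0.12.

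Chemokine genes were higher more often than lower. Of 15 CC chemokines 9 rose, 3 fell and 3 did not pass, with a median of 2.41, and of 13 CXC chemokines 8 rose, 2 fell (1 without the 4 h replicate 1, and 4 with the replicate number and the dye as terms) and 3 did not pass, with a median of 1.24. Ccl4, a macrophage inflammatory protein, rose from 10.84 and 10.69 to 17.57 and 17.72 (log2 change 6.88 ± 0.14), and the monocyte chemokines Ccl7 and Ccl2 by 6.38 ± 0.55 and 6.04 ± 0.25. The neutrophil chemokines Cxcl1, Cxcl2 and Cxcl3 rose by 7.17 ± 0.33, 6.56 ± 0.29 and 5.52 ± 0.29. Ccl5 differed between the untreated samples, at 11.39 and 12.69, and stood at 17.49 and 17.58 after LPS. Lower after 4 h were Ccl24, an eosinophil chemokine, from 15.43 and 15.46 to 13.81 and 13.52, Ccl6 from 16.76 and 16.17 to 15.40 and 14.57 and Cxcl14 from 11.54 and 11.60 to 9.42 and 9.27. Cxcl13, a B cell chemokine, was at 16.90 and 16.45 untreated and 15.78 and 15.30 at 4 h and did not pass (adjusted p = 0.0999), but passed in a fit of the 4 WT samples alone (adjusted p = 0.00602). Pf4, at 17.02 and 16.95 untreated and 16.97 and 16.63 at 4 h, did not pass the test, and Ccl8, Ccl11 and Ccl20 were not above background.

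Receptors for chemoattractants went both ways, 6 higher, 8 lower (5 of 14 tested with Agilent's processed signals) and 6 not past the threshold of 20, with a median of -0.29. Ccrl2, a nonsignalling receptor of chemerin, rose from 9.95 and 10.11 to 14.01 and 14.10, the formyl peptide receptors Fpr1 and Fpr2 by 3.41 ± 0.13 and 2.57 ± 0.11, and C5ar1, the receptor of complement C5a, by 2.43 ± 0.15. Cxcr4, the receptor of CXCL12, fell from 11.52 and 11.68 to 7.72 and 7.64 (a log2 change of -3.92 ± 0.15), C3ar1, the receptor of C3a, from 11.61 and 11.52 to 9.25 and 9.31 and P2ry6, a receptor of UDP, from 12.35 and 12.12 to 10.49 and 9.48. Cx3cr1, the fractalkine receptor, was not above background at 4 h and at least 3.56-fold lower.

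**Figure D2:**
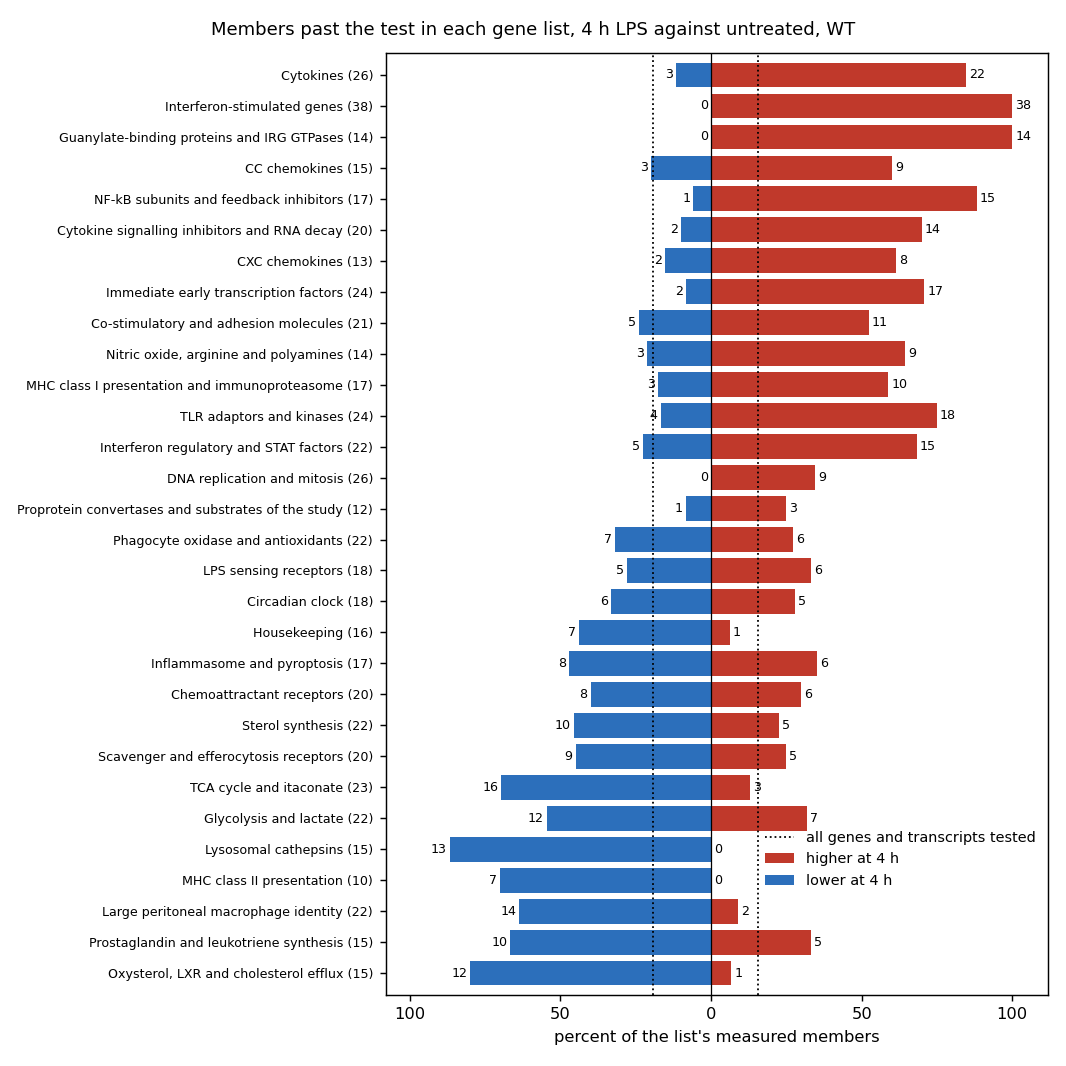
Percent of the measured members of each gene list that were higher (red) or lower (blue) in WT macrophages after 4 h of LPS than untreated, with the number of members at the bar ends and the lists ordered by their median log2 change. The dotted lines mark the shares over all genes tested, 15.5% higher and 19.2% lower. Over the 20097 above background in both samples of a group the shares, not drawn, were 28.6% and 36.3%. The interferon-stimulated genes and the GTPases stand at the upper end with all members higher.

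Every interferon-stimulated gene measured was higher at 4 h, 38 of 38, with a median log2 change of 4.36. Besides the genes above, Ifit2 rose from 6.74 and 7.05 to 14.21 and 13.95 (log2 change 7.18 ± 0.30). All 14 guanylate-binding proteins and immunity-related GTPases, which act on the membranes around intracellular microbes, also rose, with a median of 4.18. Gbp5 rose from 9.29 and 9.43 to 15.85 and 15.68, Igtp, which encodes IRGM3, from 10.13 and 10.29 to 15.31 and 15.09 and Gbp6 from 8.84 and 8.23 to 13.27 and 12.82. Tgtp2, at 9.20 and 10.12 untreated and 15.98 and 15.83 at 4 h, is nearly identical to Tgtp1, and the 2 probes cannot be told apart with certainty. The same holds for other close copies in these lists, such as the Oas1 and Slfn genes, so that a count of members may hold one signal more than once.

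The factors that drive these genes were mostly higher. Of 22 interferon regulatory and JAK-STAT genes 15 rose and 5 fell (3 without the 4 h replicate 1), with a median of 0.69. Irf7, which amplifies interferon transcription, rose from 9.31 and 8.89 to 14.71 and 14.28, 42-fold (adjusted p = 1.91e-10). Jak2, Stat2 and Irf4 rose by 3.28 ± 0.13, 2.63 ± 0.16 and 2.44 ± 0.22. Irf3, which is activated by phosphorylation, fell by 0.51 ± 0.09, and Stat5b by 0.93 ± 0.17. Ifnar1, a chain of the interferon receptor, fell from 12.58 and 12.67 to 11.55 and 11.50 on its brightest probe, but had a change of 0.07 as a mean of its probes. Ifnar2, the other chain, was at 13.41 and 13.28 untreated and 13.37 and 13.20 at 4 h and did not pass.

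Antigen presentation separated by class. Of 17 genes of MHC class I presentation and the immunoproteasome 10 rose and 3 fell, with a median of 0.78, and of those 3 only 1 was lower without any one of several samples, untreated replicate 1 and both 4 h samples among them. Nlrc5, the transactivator of class I genes, rose from 9.97 and 10.30 to 13.68 and 13.64, the peptide transporter genes Tap1 and Tap2 by 3.25 ± 0.15 and 1.70 ± 0.16 and the proteasome activator gene Psme2 by 1.43 ± 0.12. The class I chain gene H2-K1 and B2m, the light chain, had log2 changes of -0.03 and 0.05 that did not pass. Calr, a chaperone of class I folding, fell by 0.50 ± 0.11. Of 10 MHC class II genes none rose and 7 fell, with a median of -0.89. H2-DMa and H2-DMb1, which load peptides onto class II molecules, fell by 1.48 ± 0.13 and 1.30 ± 0.19, and H2-Oa, an inhibitor of that step found mostly in B cells, fell by 1.72 ± 0.28. The bright members H2-Ab1 (16.69 and 16.90 untreated and 16.45 and 16.66 at 4 h) and Cd74 (15.78 and 15.998 untreated and 15.41 and 15.63 at 4 h) did not pass the test. B cells also use these genes, and of the 9 B cell markers 3 were lower, 2 higher and 4 not past the threshold, with a median of -0.23. Cd79b and Fcrla fell by 3.05 ± 0.19 and 2.86 ± 0.21, Pax5 rose by 0.54 ± 0.16, and the part of B cells was not tested.

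Surface molecules for contact with other cells changed in both directions, 11 of 21 higher, 5 lower and 5 not past the threshold, with a median of 0.92. The activation antigen Cd69 rose from 8.06 and 8.94 to 13.70 and 13.66, the adhesion molecule Vcam1 from 6.78 and 6.76 to 12.11 and 11.29, Cd40, which receives T cell help, from 11.35 and 11.34 to 15.40 and 15.51, and Cd274, which encodes PD-L1, from 11.51 and 11.42 to 15.14 and 14.94. Selplg, the selectin ligand PSGL-1, fell by 1.87 ± 0.15, the integrin chains Itgam and Itgb2 of the complement receptor CR3 by 1.32 ± 0.13 and 1.29 ± 0.14 (Itgam had -0.66 as a mean of its probes), and Icam2 by 0.97 ± 0.11. The B7 molecules Cd86, at 13.37 and 12.89 untreated and 12.96 and 12.78 at 4 h, and Cd80, at 11.72 and 11.66 untreated and 11.65 and 11.45 at 4 h, did not pass the test on their brightest probes. As a mean of its probes Cd80 was higher at 4 h, by 1.75.

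The list of inflammasome genes held 6 rises and 8 falls among 17, with a median of -0.29. Nlrp3, a sensor of cell damage, rose from 7.15 and 7.14 to 11.23 and 11.04 (log2 change 3.99 ± 0.16), Mefv, which encodes pyrin, from 9.64 and 10.18 to 12.65 and 12.64, Casp4, the receptor of intracellular LPS also called caspase-11, from 12.73 and 12.52 to 15.21 and 14.87 and Casp1 by 1.12 ± 0.14. Naip1, a sensor of bacterial secretion needles, fell from 10.39 and 10.12 to 6.80 and 6.94, and P2rx7, the ATP-gated channel that triggers NLRP3, from 13.40 and 13.18 to 10.05 and 9.95. The related channel P2rx4 and the adaptor Pycard, also called ASC, fell by 1.81 ± 0.15 and 1.36 ± 0.19. Naip5, at 15.07 and 14.97 untreated and 15.18 and 14.82 at 4 h, and Aim2, at 7.90 and 8.21 untreated and 8.08 and 8.34 at 4 h, did not pass.

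Genes that mark macrophage effector states followed. Nos2, the inducible nitric oxide synthase, rose from 7.86 and 7.93 to 13.66 and 12.78, 40.1-fold (adjusted p = 6.36e-08). Nos2 had a log2 change of 5.33 here and of 4.88 to 5.92 under the other settings. Slc7a2, which imports its substrate arginine, rose from 7.78 and 7.75 to 14.30 and 14.11, Gch1, which makes its cofactor, from 12.83 and 13.15 to 16.07 and 16.04, and Srm, the spermidine synthase, by 2.39 ± 0.14. Arg1, which competes for arginine, fell from 12.11 and 10.64 to 10.17 and 8.16, by 2.21 ± 0.69 (adjusted p = 0.0227), with replicate 1 above replicate 2 in both groups. The call was lost without untreated replicate 1, where the log2 change was -1.48, or without the 4 h replicate 2, where it was -1.21. In the list of 14 genes 9 rose and 3 fell, with a median of 0.92.

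Of 15 genes of prostaglandin and leukotriene synthesis 5 rose and 10 fell, and none was without a call. The inducible steps of prostaglandin E2 synthesis rose, Ptgs2 with Pla2g4a, which frees arachidonic acid, by 2.50 ± 0.19, and Ptges, the E2 synthase, by 1.45 ± 0.11 (2.87 as a mean of its probes). The constitutive cyclooxygenase Ptgs1 fell from 12.18 and 11.78 to 9.40 and 8.49, the prostacyclin synthase Ptgis from 14.59 and 13.82 to 12.13 and 11.26, and Alox5 and Alox5ap, which start leukotriene synthesis, by 2.43 ± 0.22 and 2.33 ± 0.17. The median of the list was -1.16. Phagocyte oxidase and antioxidant genes had a median of 0.01, with 6 higher and 7 lower of 22. The metallothionein gene Mt2 rose by 4.25 ± 0.41, the cystine importer Slc7a11 by 3.86 ± 0.34 and the mitochondrial superoxide dismutase Sod2 by 0.92 ± 0.16, while the glutathione peroxidase Gpx1 fell from 16.41 and 16.29 to 14.07 and 13.87 and Sod1 by 0.96 ± 0.13. Hmox1, the heme oxygenase, was at 14.80 and 15.05 untreated and 14.75 and 15.42 at 4 h and did not pass.

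Genes of central metabolism were mostly lower, with single regulated steps higher. Of 22 glycolysis genes 7 rose and 12 fell, with a median of -0.76. Hk2, the inducible hexokinase, rose from 9.50 and 9.91 to 12.74 and 12.44, and Pfkp, Slc2a6 and Pfkfb3, which raises the activator of phosphofructokinase, by 2.51 ± 0.14, 2.14 ± 0.14 and 2.01 ± 0.39. The enzyme genes Tpi1 and Gpi1 fell by 1.63 ± 0.13 and 1.55 ± 0.11, as did the lactate exporter Slc16a3 by 1.70 ± 0.18 and Pfkfb4 by 2.35 ± 0.15. Ldha and Pgk1 had changes of -0.03 and 0.00 that did not pass. Of 23 genes of the tricarboxylic acid cycle and itaconate 3 rose and 16 fell, with a median of -0.63. Acod1, which makes itaconate from a cycle intermediate, rose from 12.68 and 13.37 to 17.32 and 17.45 (adjusted p = 2.29e-10). Idh1 and Idh2, the isocitrate dehydrogenases that yield NADPH, fell by 2.48 ± 0.26 and 2.37 ± 0.11, Mdh1 by 1.56 ± 0.12 and Sdhb, a subunit of succinate dehydrogenase, by 1.41 ± 0.16, whereas Idh3a, of the cycle itself, rose by 1.03 ± 0.11.

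Sterol genes were split within one pathway. Of 22 members 5 rose (2 without untreated replicate 2) and 10 fell, with a median of -0.38. Cyp51, a demethylase of lanosterol, rose from 9.73 and 9.52 to 10.46 and 10.62, by 0.92 ± 0.13. Mvk and Mvd, of the mevalonate steps, fell by 2.52 ± 0.19 and 1.58 ± 0.15, and Ebp and Dhcr7, near the end of the pathway, by 1.75 ± 0.13 and 1.86 ± 0.14. Of 15 genes of oxysterols, the liver X receptors and cholesterol efflux 12 fell and 1 rose, the lowest median of the pathway lists at -1.45. The rise was that of Ch25h, which makes 25-hydroxycholesterol. Nr1h3, which encodes LXRα, fell from 10.71 and 10.82 to 8.71 and 8.77, its target gene Abcg1, a cholesterol exporter, from 12.36 and 12.38 to 10.50 and 10.28, Soat1, which stores cholesterol as ester, from 9.64 and 9.85 to 7.03 and 7.28 and Cyp27a1 by 2.01 ± 0.18. Apoe, at 17.82 and 17.90 untreated and 17.60 and 17.62 at 4 h, did not pass.

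Receptors for uptake and genes of the lysosome were lower more often than higher. The same held for all genes and transcripts above background in both samples of a group, with 28.6% higher and 36.3% lower. Whether the uptake receptors differed from these shares was not tested. Of 20 scavenger and efferocytosis genes measured 5 rose and 9 fell, with a median of -0.39. Axl, a receptor for apoptotic cells, rose from 9.94 and 10.03 to 11.85 and 11.84, while Gas6, its ligand, fell from 11.86 and 11.09 to 10.17 and 8.99. Olr1, a receptor of oxidised lipoprotein, and Clec4e, which encodes MINCLE, rose by 1.81 ± 0.17 and 1.46 ± 0.23. Stab1, Cd5l and Trem2 fell by 2.52 ± 0.33, 1.87 ± 0.13 and 1.73 ± 0.11. Marco, a scavenger receptor at 18.00 and 18.00 untreated and 17.89 and 17.81 at 4 h, did not pass. Of 15 cathepsin and related genes 13 fell and none rose (1, Ctsw, in 3 of the 4 fits with the replicate number as a block), with a median of -0.88, among them Ctsd from 17.60 and 17.48 to 16.04 and 15.81, Ctsa by 1.60 ± 0.17 and Ctsh by 1.54 ± 0.11.

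Genes that identify large peritoneal macrophages were lower in 14 of 22 cases and higher in 2, with a median of -1.02. Cd93 fell from 15.37 and 14.88 to 11.62 and 11.10 (log2 change -3.76 ± 0.26), Vsig4, a complement receptor, from 15.58 and 14.94 to 12.98 and 12.32 and Alox15, a lipoxygenase, from 14.67 and 13.88 to 12.81 and 11.95. In all of these genes replicate 1 stood above replicate 2 in both groups, and the fall was present in each replicate. F10, coagulation factor X, and the transcription factor gene Cebpb rose by 1.11 ± 0.16 and 1.15 ± 0.14, but F10 had a change of 0.06 as a mean of its probes, which did not pass. Fn1, fibronectin, was at 16.66 and 16.94 untreated and 16.46 and 16.52 at 4 h and did not pass.

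Immediate early genes were higher at 4 h than untreated in 17 of 24 cases and lower in 2, with a median of 0.97. Myc rose from 8.90 and 8.87 to 12.83 and 12.95, Maff from 7.90 and 8.01 to 11.75 and 11.85, Ier3 by 3.53 ± 0.21 and Fosl1 by 2.73 ± 0.14. Egr2 fell from 13.38 and 13.45 to 9.99 and 10.40 and Klf2, a factor that restrains inflammation, from 12.92 and 13.02 to 10.48 and 10.93. Of 26 genes of DNA replication and mitosis 9 rose and none fell, with a median of 0.30, and the minichromosome maintenance genes Mcm3, Mcm4 and Mcm6 had changes of -0.07, -0.18 and 0.28 that did not pass. Mki67 stood apart with a rise from 9.85 and 9.66 to 13.61 and 13.47 on the brighter of its 2 probes, and by 3.81 as a mean of both. Of 18 clock genes 5 rose (3 without untreated replicate 1, and 2 of 11 tested with Agilent's processed signals) and 6 fell. Nfil3 rose by 2.40 ± 0.17, while the factors Dbp and Tef, which bind the same sites as NFIL3, fell from 13.33 and 13.17 to 9.07 and 9.10 and from 13.31 and 13.54 to 10.92 and 11.24.

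FURIN itself, the protease deleted in the KO mice, was measured in all WT samples. Furin had log2 intensities of 11.56 and 11.48 untreated and 12.02 and 11.65 at 4 h, a difference of 0.31 ± 0.13 (adjusted p = 0.0965), which did not pass in the fit of all samples. The change was 0.12 without the 4 h replicate 1 and 0.50 without the 4 h replicate 2, and the second of these passed, as did the change with the replicate number as a block (adjusted p = 0.0388). It was higher at 4 h than at 1 h, by 0.58 ± 0.13 (adjusted p = 0.00416), and higher than at 24 h, by 0.71 ± 0.13 (adjusted p = 9.71e-04). Of 12 convertases and substrates that the study discusses 3 rose and 1 fell, Pcsk7 by 0.81 ± 0.11, Pcsk4 by 0.56 ± 0.12 and Casp1 upward and Mbtps1, the site-1 protease, from 13.48 and 13.33 to 12.36 and 12.36. Trem1, a receptor that amplifies TLR signals, was at 9.86 and 9.57 untreated and 9.77 and 8.95 at 4 h and did not pass (adjusted p = 0.414), and its direction rested on 1 sample, with a change of -0.76 without the 4 h replicate 1, which passed, and of 0.05 without the 4 h replicate 2. Il12rb1, a chain of the interleukin-12 receptor, rose by 1.23 ± 0.17.

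Genes often taken as references were not all level. Of 16 such genes 7 fell (4 without the 4 h replicate 1) and 1 rose, with a median of -0.28. Gusb fell from 14.64 and 14.39 to 12.25 and 12.05 (log2 change -2.37 ± 0.17), Gapdh by 0.80 ± 0.15 and Sdha by 0.63 ± 0.11, whereas Ywhaz rose by 0.86 ± 0.10. Actb, at 17.58 and 17.78 untreated and 17.91 and 17.73 at 4 h, Actg1, at 17.46 and 17.40 untreated and 17.38 and 17.34 at 4 h, and Ppia, at 17.44 and 17.31 untreated and 17.45 and 17.25 at 4 h, did not pass the test, and the sign of the change in Actb turned with Agilent's processed signals (-0.02).

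**Figure D3:**
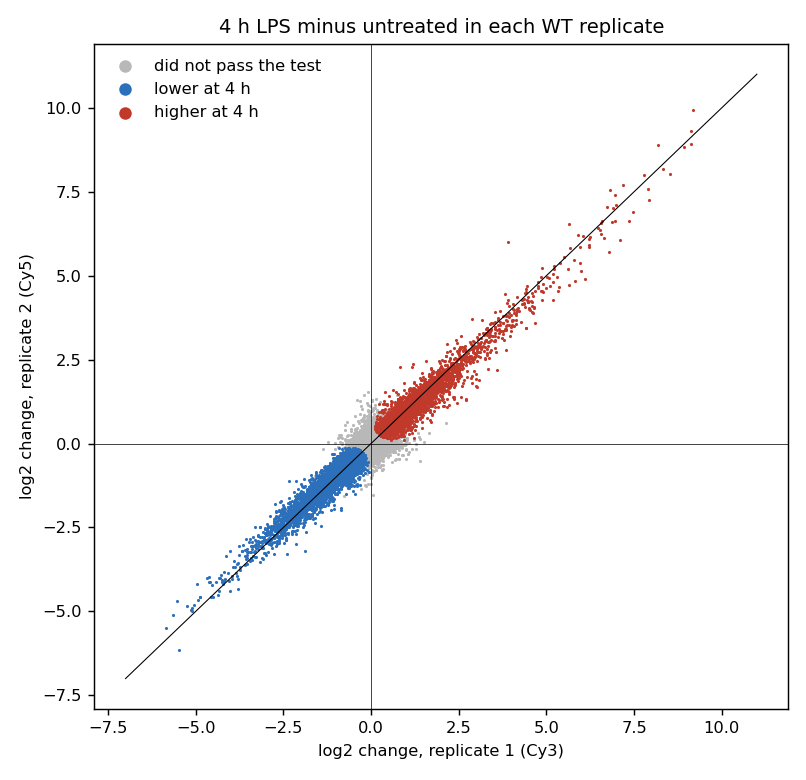
Log2 change from untreated to 4 h of LPS in WT macrophages in replicate 1 (x axis, both samples in Cy3) and in replicate 2 (y axis, both in Cy5), for the named genes. Genes past the threshold, 3764 higher and 5095 lower, have the same sign in both replicates.

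The series also holds WT cells after 1 h and 24 h, which place the 4 h values in time. These comparisons share the 4 h samples with the one above and with each other. Against 1 h, 10921 genes and transcripts differed at 4 h (29.6%), 5150 higher (13.9%) and 5771 lower (15.6%), and against 24 h 10964 (29.7%), 5383 higher (14.6%) and 5581 lower (15.1%). Among genes also past the threshold against untreated cells, the 5 furthest above their 1 h level were Cmpk2, Ifit3, Rsad2, Ifit2 and Plagl1. Cmpk2 was at 8.51 and 8.48 at 1 h, then 16.13 and 16.005 at 4 h and lastly 13.03 and 12.52 at 24 h, 7.57 ± 0.17 above the 1 h level. Plagl1, a zinc finger factor gene, was at 7.08 and 6.88 untreated, 7.71 and 7.46 at 1 h, then 13.97 and 13.89 at 4 h and lastly 7.26 and 7.29 at 24 h, and thus stood high at 4 h alone among the times sampled. Furthest below their 1 h level were Egr2, Slc43a2, Cerk, Tmem37 and Eepd1, and Egr2 had been at 15.11 and 14.73 at 1 h, above its untreated level, before its fall.

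Against 24 h, Plagl1, Tnfsf15, Ifnb1, Vsig4 and Igf1 stood furthest above. Ifnb1 had reached 13.22 and 12.96 at 1 h, was at 13.06 and 13.48 at 4 h and was back at 7.72 and 7.63 at 24 h, a difference of 5.60 ± 0.18 between 4 h and 24 h. Tnfsf15, which encodes TL1A, went from 8.40 and 8.40 at 1 h through 13.17 and 13.21 at 4 h to 7.50 and 6.95 at 24 h. Vsig4 kept falling, from 12.98 and 12.32 at 4 h to 7.28 and 7.16 at 24 h, and Igf1, insulin-like growth factor 1, was at 13.83 and 13.65 at 4 h and 8.24 and 9.33 at 24 h. Furthest below their 24 h level were Csta2, Arg1, Lcn2, U90926 and Scd2. Arg1 was at 15.23 and 13.75 at 24 h and so -5.32 ± 0.69 at 4 h relative to 24 h, and Lcn2, lipocalin 2, which binds bacterial siderophores, was at 12.84 and 12.51 at 4 h and 17.47 and 17.06 at 24 h.

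The levels of Tnf and Il6 at 1 h were close to those at 4 h. Tnf was at 17.72 and 17.51 at 1 h and 17.78 and 17.92 at 4 h, a difference of 0.23 ± 0.26 that did not pass (adjusted p = 0.612), and had dropped to 13.19 and 13.91 at 24 h. Il6 was at 17.11 and 16.49 after 1 h, 17.06 and 17.26 after 4 h and 16.79 and 17.27 after 24 h, and neither difference from 4 h passed. Il10 was at 10.22 and 9.91 at 1 h, then 12.16 and 12.08 at 4 h and lastly 10.95 and 10.68 at 24 h, while Nos2 had 7.86 and 8.08 after 1 h, 13.66 and 12.78 after 4 h and 13.52 and 12.42 after 24 h, above its 1 h level by 5.25 ± 0.38 at 4 h. Ch25h was at 9.92 and 8.79 at 1 h and 15.92 and 14.16 at 24 h, above its 4 h level by then.

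**Figure D4:**
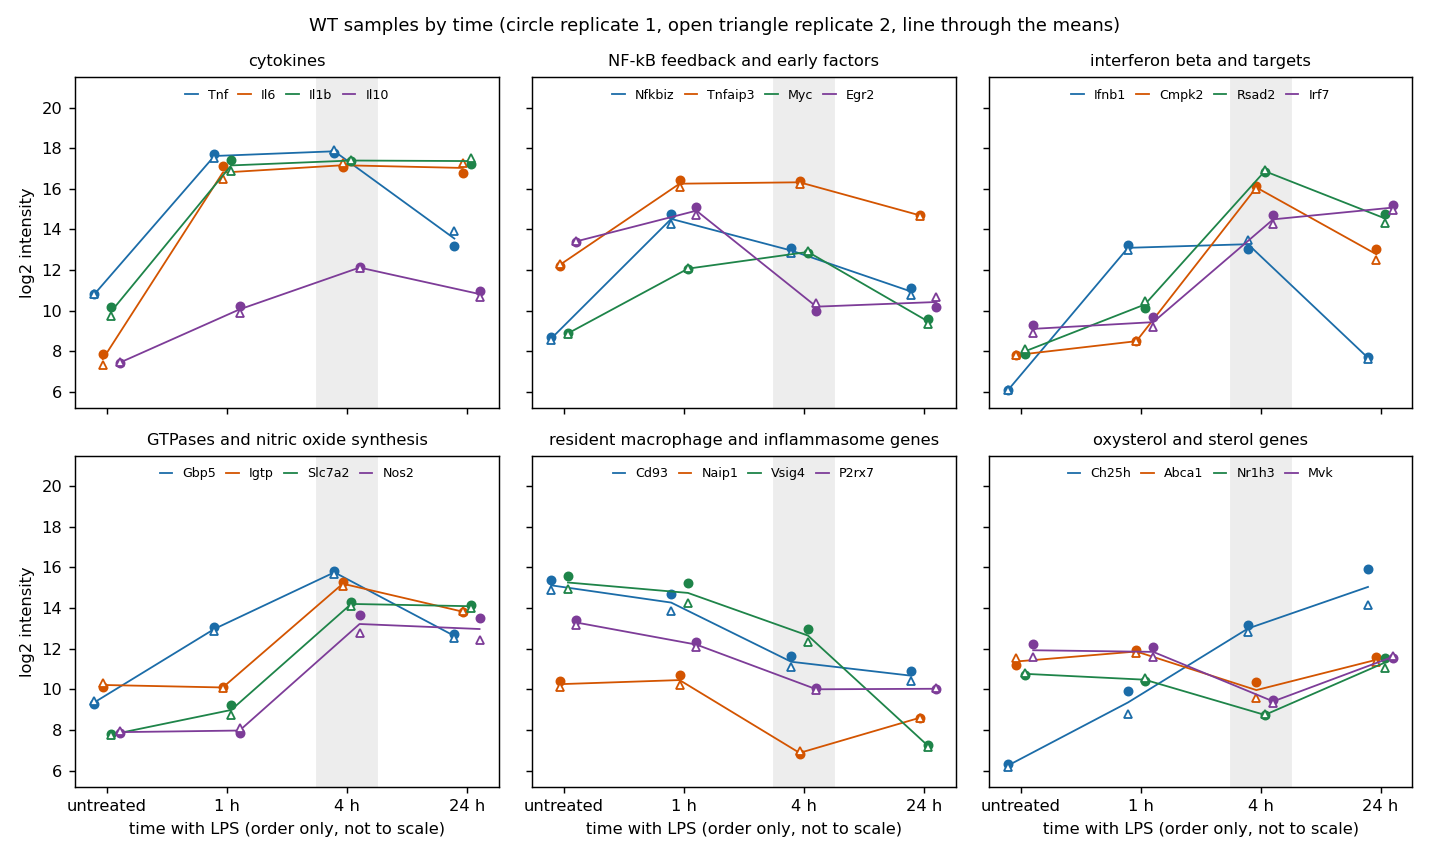
Normalized log2 intensity (y axis) of 24 genes in the WT samples at each time of LPS (x axis, in order and not to scale), with circles for replicate 1, open triangles for replicate 2 and lines through the means, and the 4 h samples shaded. Tnf and Il6 stood close to their 4 h level at 1 h, Cmpk2, Igtp and Slc7a2 rose between 1 h and 4 h, and Cd93, P2rx7 and Mvk fell in that interval.

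The list counts below can be read against those over genes and transcripts above background in both samples of a compared group. Of 19405 such genes and transcripts 5279 were higher and 5923 lower at 4 h than at 1 h. Against 24 h, 5672 of 19603 were higher and 5757 lower. By list, interferon-stimulated genes were above their 1 h level at 4 h in 37 of 38 cases and above their 24 h level in 28, with 3 below. All 14 guanylate-binding proteins and GTPases were above the 1 h level and 13 above the 24 h level. Immediate early genes were below the 1 h level in 12 of 24 cases and above it in 4, and above the 24 h level in 19. NF-κB genes were above 1 h in 6 of 17 cases, below in 4 and above 24 h in 14. Cytokines were above 1 h in 15 of 26 cases and below in 4, and above 24 h in 16 and below in 4. Large peritoneal macrophage genes were below 1 h in 11 of 22 cases, and above 24 h in 12. Glycolysis genes were below 1 h in 12 of 22 cases and below 24 h in 13, genes of the tricarboxylic acid cycle below in 15 and 13 of 23, and sterol genes below in 14 and 11 of 22, so that in these lists most members that differed were lower at 4 h than at either other time. Replication genes were below their 24 h level in 22 of 26 cases.

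For no gene did the response of KO cells on the same arrays differ from that of WT cells past the threshold. Of 36925 genes and transcripts 0 were called for the difference between the 4 h responses (0%, limma, smallest adjusted p = 0.135). An unadjusted p under 0.05 was found in 1063, a smaller share than the 0.05 that would be found if no gene differed. With the replicate number and the dye as terms, a fit chosen after the data were seen, 26 were called, 12 with a positive and 14 with a negative log2 difference, KO minus WT. Il6 rose by 8.22 and 9.20 in the KO replicates against 9.18 and 9.92 in WT, a difference of -0.84 (adjusted p = 1).

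Some genes that moved lie side by side. In the order of the 20836 tested named genes along the chromosomes, 14 runs of at least 4 neighbours rose more than 2-fold, holding 71 of the 1725 genes that did so, and 20 such runs fell, holding 90 of 2483. These runs were chosen after the values were seen and were not tested. The longest upward runs were 8 genes of the Ifi200 family on chromosome 1, from Ifi214 to Ifi211, with log2 changes from 2.70 to 6.14, and 8 genes on chromosome 11, from Slfn5 to Slfn3. Others were 7 genes on chromosome 7, from Trim34a to Trim30d, 6 on chromosome 11 around Tgtp1, 4 on chromosome 19 from Ifit2 to Ifit3b, 4 on chromosome 5 from Gbp9 to Gbp6 and 4 on chromosome 17 from Psmb9 to Tap2, which mixes proteasome and transporter genes. The longest downward runs held 6 genes each, from Habp4 to Cdk20 on chromosome 13 and from Rras to Fcgrt on chromosome 7. Several of the upward families hold near-identical copies whose probes may share signal.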

How the data were processed

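The authors read 2-colour Agilent arrays with Feature Extraction 10.7.3 and deposited, per the file headers, the raw median intensity of each of 62976 spots in both channels. Intensities of all 16 channels were processed in R 4.3.3 with limma 3.58.1 and statmod 1.5.0 by normexp background correction (offset 50), loess within arrays with control spots at weight 0, and quantile normalization between arrays. The study names loess and quantile normalization, and normexp was chosen here. Outlier flags of the scanner software removed 2128 channel values. Of 55681 gene probes 27509 were named through RefSeq accessions (GRCm38.p6), for 20887 genes. Replicate spots were averaged, each gene took its brightest probe, and the 36925 genes and transcripts whose mean log2 value reached 6 entered the test.

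Samples were grouped by title and genotype. A separate-channel fit of 8 genotype and time groups (within-spot correlation 0.121, from 5000 genes) was tested with eBayes, with Benjamini-Hochberg adjustment across the whole table and 0.05 as the threshold. SE and p come from this fit. The steps were tested on simulated data. Precision is limited by 2 arrays per group. Alternatives were Agilent's processed signals, Aquantile scaling, no loess, no intensity filter, only genes above background and the mean of all probes. The rest were the replicate number as a term, other sets of samples, a correlation of 0, each sample left out and the methods' t-test. A sample was always left out together with the other sample on its array, so that WT and KO went together.

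Members and lists were chosen with earlier results of these data known. Named are the 10 largest changes in each direction among genes above background in all 4 samples, the largest bounds (10 up, 5 down), genes the paper discusses under LPS, of each list up to 4 members up, 4 down and 3 bright ones not past the threshold, the 5 largest differences each way from 1 h and 24 h, and cell type markers. Listed genes without a named probe, such as Il12b, Mx1, Mx2 and Cxcl11, were not analysed here, and some measured genes are not reported here. The authors' matrix of log2 ratios was not used.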

Additional observations from a re-analysis of the deposited data

Results flagged for a closer look

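In Abca1, a cholesterol exporter and target of the liver X receptors, both WT replicates fell after 4 h of LPS and both KO replicates rose. The WT changes were -0.85 and -1.97 and the KO changes 0.21 and 0.23 on the log2 scale. The difference between the responses, KO minus WT, was 1.63 and did not pass the test (limma, adjusted p = 0.317).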

How the results depend on the processing

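The count of genes that differed between 4 h and untreated WT cells, 12822, lay between 10574 and 14424 under the other settings, apart from the methods' t-test with Benjamini-Hochberg adjustment, which gave 1844. The lowest, 10574, came with Agilent's processed signals, where 14850 genes were tested and 9888 of the 9933 calls among them remained. Without single samples it lay between 10973 and 12518. The counts against 1 h lay between 9165 and 10640 and those against 24 h between 8790 and 10731 without single samples, and leaving out either array of a time point outside a comparison gave the same fit by construction. For the difference between KO and WT responses the count was 0 under all settings run, single samples left out among them, except with the replicate number and the dye as terms, where it was 26. Replicate numbers recur in each group, and the difference between replicates 1 and 2 correlated across genes between WT times (Pearson's r 0.339 to 0.565 over 6 pairs), but in WT a number also marks a dye. With the replicate number as a block the counts were 13249 against untreated, 11341 against 1 h, 11410 against 24 h and 0 for the difference of responses. No call against untreated changed sign except under the mean of all probes, where 99 of 12822 did and 19 were called the other way. Among the named and listed genes the called Ifnar1 and Srebf2 turned to 0.072 and 0.24, from -1.10 and -0.44 on the brightest probe, and Cd80 and Tollip, which had not passed, turned to 1.75 and 0.70, from -0.13 and -0.06. The size of a change depended on the background correction and on the probe. Of the called genes that are named or listed, the fold moved by over 1.5 times in 57 of 439 with Agilent's processed signals and in 30 of 467 as a mean of all probes. Among the genes whose change is printed, it moved by over 1.5 times on the log2 scale in Dhcr7 (-3.21) and Il12rb1 (2.12) with processed signals, and as a mean of all probes in Cyld (-0.98), Il12rb1 (0.80), Mbtps1 (-0.63), P2rx7 (-2.04), Pfkfb4 (-1.35), Pfkp (1.51), Plagl1 (3.79) and Tnfsf12 (-1.37), beside those given where they are named. Under the methods' t-test with adjustment 341 of 593 named and listed genes lost their call and 51 of 60 list counts moved by over 1.5 times. The t-test rests on 2 residual degrees of freedom per gene. Of the gene spots 43.7% to 51.3% were well above background, and 14347 genes and transcripts had no probe above it in any of the 4 samples. Of the 12822 calls 12293 were among genes above background in both samples of a group.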
